A study of Zea mays with 4 samples.

Results

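Plant roots take up nitrate, phosphate and potassium through membrane carriers that are mostly coupled to the inward movement of protons. Genes named as such carriers were examined in the root tip of maize. Every protein-coding gene was taken whose symbol or synonym in the NCBI maize gene table begins with nrt, npf, amt, pht, hak, akt or sultr and a number, whether or not it was detected. This gave 38 of the 34018 protein-coding genes in the files. Of these 38, 10 were matched by symbol and 28 by a synonym only. They comprised 4 nrt genes (nitrate), 10 pht genes (phosphate) and 24 HAK genes (potassium). The numbers of npf, amt, akt and sultr genes were 0, 0, 0 and 0, so the ammonium and sulfate carriers that the naming rule allowed for are not represented. Carriers that the gene table lists without such a name were not analysed here.

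The tissue was the last 1 mm of the primary root and the seminal roots of B73 seedlings, taken 3 days after germination. There was 1 untreated group with 4 biological replicates. B73 is the inbred line behind the maize reference genome. The seeds were germinated on paper wetted with sterile water under continuous dim light at 28 C, and the labels mention no added nutrient. Both root types are named for every library, so they cannot be told apart. RNA was depleted of ribosomal RNA and sequenced from strand-specific libraries, and the stated aim was a steady-state profile of whole cells.

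HAK proteins belong to a family of potassium carriers, some of which act at low external potassium, and pht genes encode carriers that bring phosphate into cells together with protons. NRT2 proteins are nitrate carriers of high affinity that in many plants need the partner protein NAR2 to work at the plasma membrane, whereas NRT1 proteins belong to the large NPF family, whose members carry nitrate and also peptides or hormones. In mature root zones such carriers serve uptake from the soil and loading of the xylem. The tip holds the meristem and the root cap.

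Library totals ran from 9168900 to 14728797 counts. The level of a gene is given in CPM, its count scaled to a library total of 1e6, and n is 4 libraries throughout. The median expressed protein-coding gene lay between 13.9 and 15.5 CPM in the 4 libraries. The defining markers of the tissue were present: the 2 root cap genes RCP1 and RCP2 together reached 316 to 423 CPM, and all 5 markers of dividing cells lay above the median gene. The root hair gene rth3 also lay above it, at 65.6 ± 3.09 CPM (SD), whereas the phloem gene sut1 lay below at 2.24 ± 0.844 CPM. The endodermis genes ZmCASP1 and ZmCASP2 reached at most 0.339 CPM together, and 12 of 13 seed storage genes and both pollen genes had no count. Among 12 leaf genes 6 had no count and 2 were expressed, ppdk1, whose enzyme also acts outside photosynthesis, at 60.0 ± 20.6 CPM and above the median gene, and a light-harvesting gene, LOC100193833, at 3.45 ± 1.12 CPM and below it. In these bulk samples, fewer cells of a type and less RNA per cell cannot be told apart.

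The transporter genes fell into a set that passed the expression filter and a set that did not, with a wide gap in counts between them. Expressed, by edgeR's filter for genes with enough counts, were 19 of 38, where 57.6% of all protein-coding genes passed. The expressed genes were 15 of 24 HAK genes, 4 of 10 pht genes and 0 of 4 nrt genes. The lowest total over 4 libraries was 289 counts among the expressed members and the highest was 22 counts among the others. No member lay between these totals. The share of all protein-coding genes between them was not worked out, so the gap cannot be called particular to the members. Of the 19 members under the filter, 12 had at least 1 count, as did 6676 of the 14412 protein-coding genes under the filter. All 4 libraries lacked any count for 7 of the 38, or 18.4%, and for 22.7% of all protein-coding genes. The median of all 38 members stood at 3.00 CPM and the median of all protein-coding genes at 3.22 CPM. The former is the midpoint between HAK24 at 5.55 CPM and pht12 at 0.449 CPM. No member lay between these 2 levels, so the closeness of the medians does not describe a typical member.

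**Figure D1:**
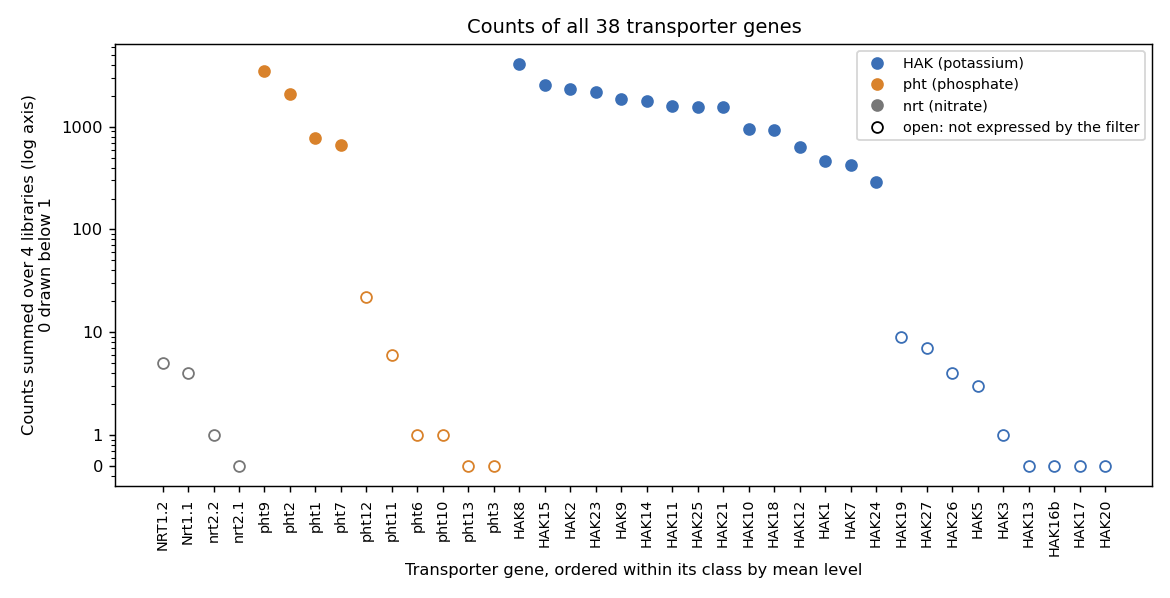
Counts of each of the 38 transporter genes summed over 4 libraries, on a log axis with 0 drawn below 1, grouped into nrt, pht and HAK genes; filled circles passed the expression filter and open circles did not. The filled circles start at 289 counts and the open circles end at 22, and all 4 nrt genes are open.

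The nitrate carriers were the class without an expressed member. NRT1.2 (GeneID 778429) had 1, 2, 0 and 2 counts in replicates 1 to 4. Nrt1.1 (GeneID 542511) had 0, 0, 2 and 2 counts. nrt2.2 (GeneID 606442) had 1 count, in replicate 2. nrt2.1 (GeneID 542092) had no count in any library. The limit set for a count of 0, that of 3 counts over the 4 libraries, was 0.0584 CPM, and the exact Poisson interval at 95% reached 0.0719 CPM. The 4 genes together gave 10 counts, and their summed level was between 0.0679 and 0.327 CPM per library. In the gene order of the reference nrt2.1 and nrt2.2 are direct neighbours, and they share an older gene model name, so their reads may not be separable. Summing them gives 1 count, but a sum cannot restore reads that were left uncounted because they match both genes. Whether such reads were left out is not known here. NRT1.2 and Nrt1.1 also lie near each other, with 1 protein-coding gene between them.

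Genes that work around the nitrate carriers were not uniformly low. NAR2.1 (GeneID 778437), named for the NRT2 partner protein, stood at 98.3, 96.2, 99.0 and 117 CPM in replicates 1 to 4. The 4 values lie close together, with replicate 4 the highest. The level was 103 ± 9.74 CPM, with a fitted ratio to the median gene of 2.81 ± 0.0787 on the log2 scale (SD over libraries), and it passed the test described below (edgeR quasi-likelihood, adjusted p = 8.96e-13). Its 5293 counts over 4 libraries stand beside 0 counts of nrt2.1 and 1 count of nrt2.2, from which reads that match both nrt2 genes may be missing. The second partner gene, NAR2.2, had 1 count. NNR1, a nitrate reductase gene, had 28 counts in all and was not expressed, with 0.747, 0, 0.434 and 0.808 CPM in replicates 1 to 4. NLP8, named for the NIN-like proteins that regulate nitrate responses, lay below the median gene at 2.35 ± 0.385 CPM.

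The expressed members were placed against the gene of median count among the expressed protein-coding genes of the same library. Each was tested with edgeR's quasi-likelihood model for a difference of more than 2-fold in either direction, with p-values adjusted by Benjamini-Hochberg over all 21046 genes tested. The ratios are ratios of reads and not of molecules, since the reference held no transcript lengths and a longer transcript gives more reads. Of the 19 members, 8 lay above, 1 lay below and 10 did neither. Among all protein-coding genes tested 26.6% lay above and 25.1% below. With counts per kb of gene span, introns included, 7 lay above and 2 below. With no filter on low counts the median gene was lower and the 12 members under the filter that had a count were tested too. Of the 19 members 12 then lay above and 0 below, and all 12 of the added members lay below.

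**Figure D2:**
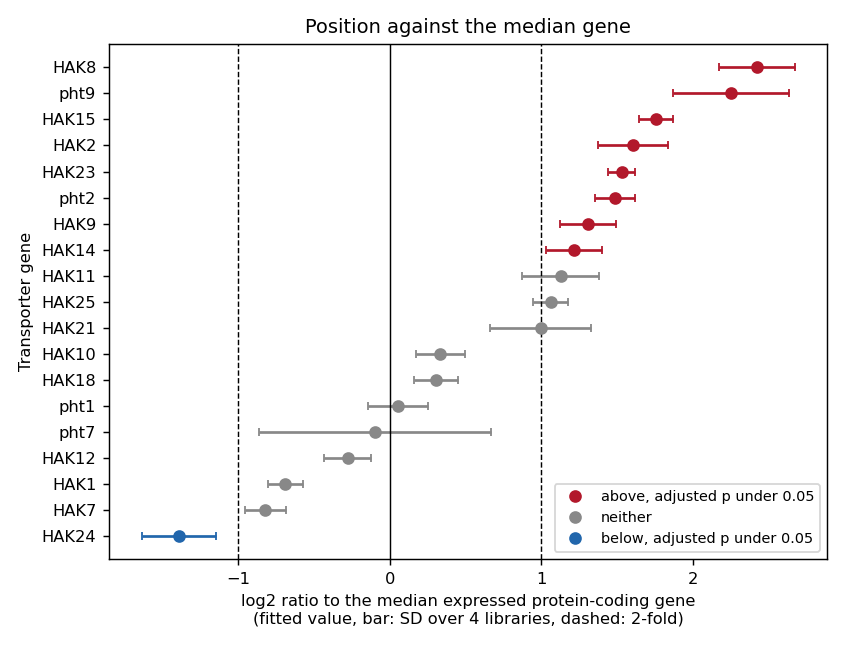
Fitted log2 ratio of each expressed transporter gene to the median expressed protein-coding gene, with bars for the SD over 4 libraries and dashed lines at 2-fold; colours give the outcome of the edgeR test. HAK8 and pht9 lie farthest right at 2.42 and 2.25, and HAK24 is the 1 gene below.

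Among the phosphate carriers, 4 genes carried nearly all counts and 6 were not expressed. pht9 (GeneID 100502494) stood at 79.0, 87.1, 56.0 and 55.8 CPM in replicates 1 to 4. Replicates 1 and 2 were thus above replicates 3 and 4. Its mean of 69.5 ± 16.1 CPM was higher than that of 87.2% of expressed protein-coding genes, and its log2 ratio to the median gene was 2.25 ± 0.38 (edgeR, adjusted p = 2.57e-08). pht2 (GeneID 732716) was steadier, at 39.3, 44.2, 40.3 and 40.4 CPM. Its log2 ratio was 1.49 ± 0.13 (edgeR, adjusted p = 3.54e-05). The ranges of pht9 and pht2 did not overlap in CPM, nor in CPM per kb of gene span, where pht9 had 35.3 ± 8.16 and pht2 21.8 ± 1.14.

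pht1 (GeneID 542180) lay at the median gene, with 16.1, 16.7, 14.6 and 13.5 CPM in replicates 1 to 4 and a log2 ratio of 0.06 ± 0.20. Per kb of gene span its log2 ratio was 1.22, which did not pass (edgeR, adjusted p = 0.0526). pht7 (GeneID 732717) was the least reproducible member. It stood at 10.8, 25.0, 11.9 and 7.93 CPM, so that replicate 2, the library with the lowest total, held more than any of the others. Its coefficient of variation was 54.5%, larger than in 99.7% of expressed protein-coding genes, and its log2 ratio of -0.10 ± 0.77 has no settled sign. Without replicate 1, 2 or 4 it was 0.02, -0.50 or 0.13, and per kb of gene span it was 0.98. The ranges of pht1 and pht7 overlapped, whereas both lay wholly below pht2.

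The pht genes together reached 146, 174, 123 and 118 CPM in replicates 1 to 4. pht9 held 49.2 ± 3.87% of these counts and pht2 held 29.8 ± 4.25%, which adds up to 79.0%. pht1 and pht7 held 11.0 ± 0.982% and 9.53 ± 3.46%. Of the genes under the filter, pht12 had a count in all 4 libraries, with 5, 6, 6 and 5 counts, and pht11 had 1, 1, 2 and 2. pht6, whose synonym is pht1-6, is known in maize as a phosphate carrier induced by mycorrhizal fungi, and it had 1 count, as did pht10. pht3 and pht13 had none. pht3, pht13 and pht12 lie next to each other in the gene order, with pht3 and pht13 adjacent and 1 protein-coding gene before pht12, and no gene of this cluster passed the filter. PHR1, named for a transcription factor of the phosphate starvation response, was expressed at the level of the median gene, with 13.4 ± 2.33 CPM and a log2 ratio of -0.12 ± 0.19.

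**Figure D3:**
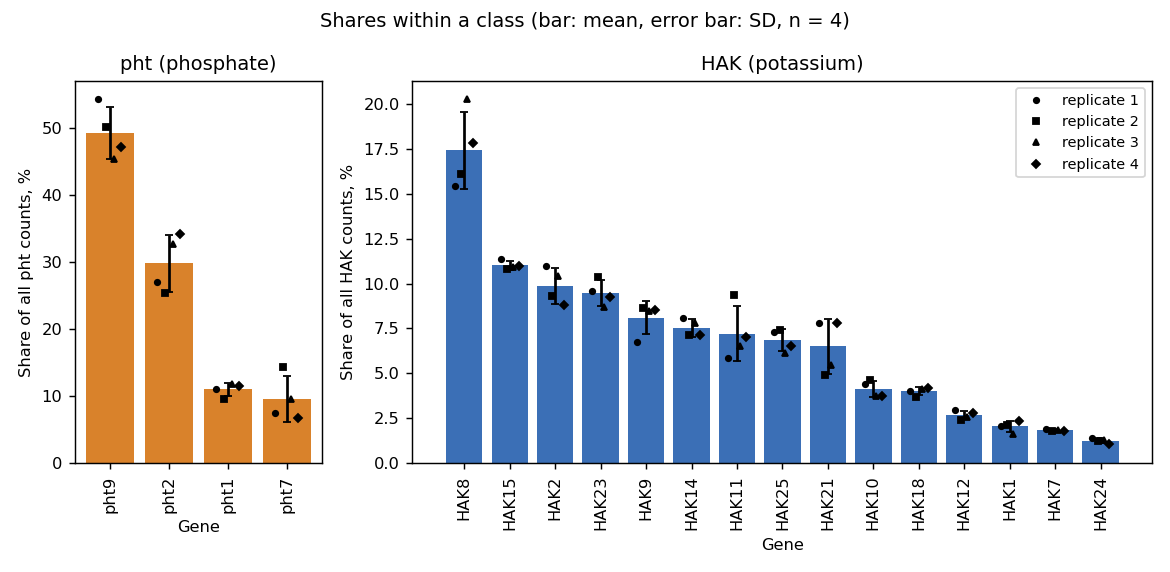
Share of each expressed gene in all pht counts (left) and all HAK counts (right), as the mean over 4 libraries with the SD and the 4 single values. In the pht class pht9 and pht2 hold 79.0%, while the HAK class is spread over 15 genes and its leading gene, HAK8, holds 17.4%.

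The potassium carriers were the largest class and the class with most expressed members. Of the 24 HAK genes 62.5% were expressed, near the 57.6% of all protein-coding genes. HAK genes together reached 455, 407, 488 and 443 CPM in replicates 1 to 4, a mean of 448 ± 33.8 CPM. These counts were spread over many genes. HAK8 held 17.4 ± 2.15% of them, and the first 4 genes, HAK8, HAK15, HAK2 and HAK23, held 47.8%. Of the 15 expressed HAK genes 6 lay above the median gene, 1 below and 8 did neither.

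HAK8 (GeneID 100279541) was the highest member, with 70.3, 65.5, 99.0 and 79.1 CPM in replicates 1 to 4. Replicate 3 was the highest and every library was above all libraries of the next gene. The mean of 78.5 ± 14.8 CPM exceeded that of 88.7% of expressed protein-coding genes, and the log2 ratio was 2.42 ± 0.25 (edgeR, adjusted p = 4.61e-10). Per kb of gene span HAK8 also led, at 11.7 ± 2.2 CPM per kb, but there its range overlapped that of HAK15 at 9.82 ± 0.83, so the lead of HAK8 over HAK15 rests on the scale without length.

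Behind HAK8 came a run of genes whose neighbours in the order could not be separated. HAK15 (GeneID 100274241) stood at 51.8, 43.8, 53.3 and 48.7 CPM, HAK2 (GeneID 100194111) at 49.9, 37.7, 50.8 and 39.1 CPM. In both genes replicates 1 and 3 were the highest, and the ranges overlap. HAK23 (GeneID 100383367) was the most even of all members, with 43.5, 42.2, 42.5 and 40.9 CPM and a coefficient of variation of 2.56%. The log2 ratios of HAK15, HAK2 and HAK23 were 1.76 ± 0.11, 1.60 ± 0.23 and 1.53 ± 0.09 (edgeR, adjusted p = 1.70e-07, 1.39e-05 and 8.91e-06).

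HAK9 (GeneID 100273533) and HAK14 (GeneID 100193955) passed the test, but not in every setting. HAK9 had 30.8, 35.1, 41.3 and 37.9 CPM in replicates 1 to 4 and a log2 ratio of 1.31 ± 0.19 (edgeR, adjusted p = 0.0043). HAK14 had 36.9, 28.9, 38.2 and 31.6 CPM and a log2 ratio of 1.21 ± 0.18 (adjusted p = 0.0406). HAK9 missed the threshold without replicate 3 (adjusted p = 0.0594). HAK14 missed it without replicate 1 or 3 (0.177 and 0.280), with DESeq2 (0.0723), and per kb of gene span, where its log2 ratio was 0.21 (1.0).

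HAK11, HAK25 and HAK21 stood near 2-fold above the median gene without passing. Their levels were 32.0 ± 4.71, 30.5 ± 1.81 and 29.2 ± 7.37 CPM, with log2 ratios of 1.13 ± 0.26, 1.06 ± 0.12 and 1.00 ± 0.33. HAK11 was highest in replicate 2, at 38.2 CPM, where HAK21 was lowest, at 19.8 CPM against 26.7 to 35.5 CPM in the other libraries. HAK10 and HAK18 lay close to the median gene at 18.4 ± 1.41 and 18.0 ± 2.12 CPM. HAK12 followed at 12.0 ± 1.54 CPM, and its range lay wholly below that of HAK18 in CPM but not per kb of gene span.

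**Figure D4:**
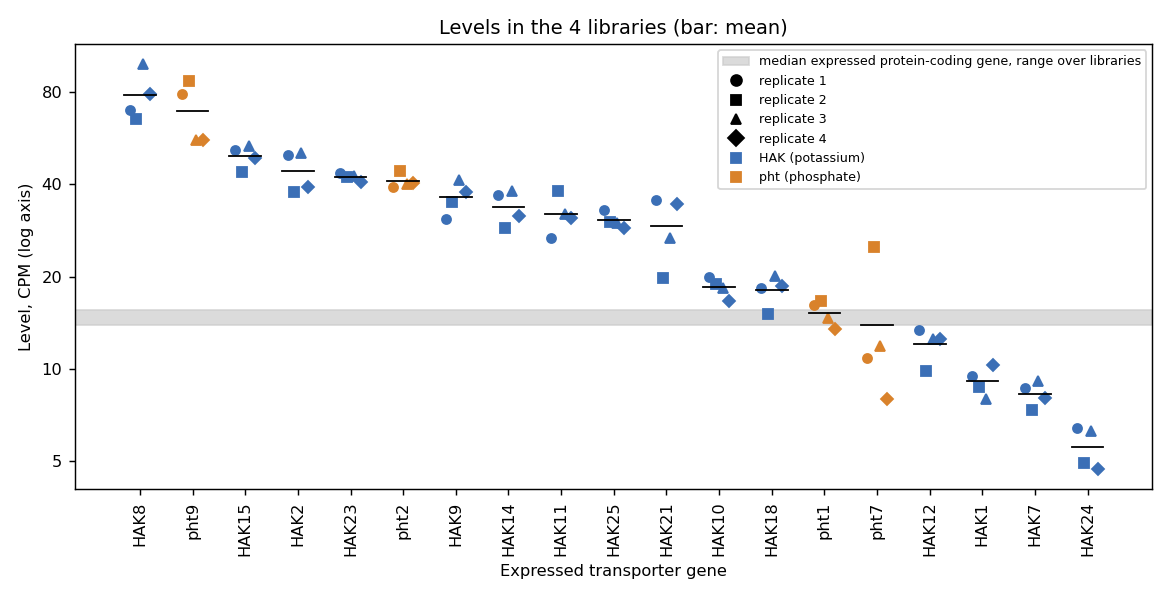
Level of the 19 expressed transporter genes in each of the 4 libraries in CPM on a log axis, with a bar at the mean and a grey band for the range of the median expressed protein-coding gene. The values of most genes lie close together, and pht7 stands out with 25.0 CPM in replicate 2 against 7.93 to 11.9 CPM in the others.

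The low end of the class held HAK1, a potassium carrier characterised in maize together with HAK5. HAK1 (GeneID 100502520) had 9.44, 8.73, 7.96 and 10.3 CPM in replicates 1 to 4 and a log2 ratio of -0.69 ± 0.12, which did not pass. HAK7 stood at 8.26 ± 0.785 CPM, also without passing. HAK24 (GeneID 100384841) was the lowest expressed member, with 6.38, 4.91, 6.23 and 4.70 CPM, and lay below the median gene with a log2 ratio of -1.39 ± 0.25 (edgeR, adjusted p = 0.0139). Its range did not overlap that of HAK7 in CPM. Without replicate 2 or 4 its adjusted p was 0.0601 or 0.0998. Per kb of gene span HAK7, whose gene is long, lay lowest, with a log2 ratio of -2.11 (adjusted p = 1.73e-07).

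HAK5 (GeneID 100384472), characterised in maize as a carrier for potassium uptake with high affinity, was not expressed. It had 1, 0, 2 and 0 counts in replicates 1 to 4, a pooled level of 0.0584 CPM with an exact Poisson interval of 0.0121 to 0.171 CPM at 95%. That interval, like every detection limit given here, covers counting error only. The gene overlaps another gene, LOC103650810, in the reference, which had 14, 6, 17 and 10 counts. HAK19, with 9 counts in all, overlaps LOC100192920, with 18 to 32 counts per library. HAK27, HAK26 and HAK3 had 7, 4 and 1 counts, and HAK13, HAK16b, HAK17 and HAK20 had none. The 9 HAK genes under the filter together gave 24 counts.

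Neighbouring HAK genes differed in whether they passed the filter. HAK27, HAK16b and HAK21 follow each other with 1 protein-coding gene between each pair. HAK27 had 7 counts and HAK16b 0, whereas HAK21 had 523, 182, 369 and 472 counts. HAK20 and HAK1 likewise have 1 protein-coding gene between them. HAK20 had no count and HAK1 had 139, 80, 110 and 140. In both clusters 1 member was expressed and the others were not.

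The spread between replicates was small for most members. The median coefficient of variation over 4 libraries was 12.3% among the 19 expressed members and 13.2% among all expressed protein-coding genes. HAK8, pht9 and HAK21 had 18.8, 23.1 and 25.3%, pht7 had more, and the other members had less. The libraries shared the highest values unevenly. In replicates 1, 2, 3 and 4 respectively 6, 5, 7 and 1 members reached their highest level, against 23.3, 21.0, 17.3 and 38.4% of all expressed protein-coding genes. The single member that was highest in replicate 4 was HAK1.

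Related genes were described from lists built by name, for assimilation, nitrate partners and regulators, phosphate signalling, other potassium transport and proton pumps. There were 36 genes in all, of which 28, or 77.8%, were expressed, against 57.6% of all protein-coding genes. Of the 28 expressed genes, 12 lay above the median gene, 5 below and 11 did neither. The share above was 42.9% of the expressed genes, against 26.6% of all protein-coding genes tested, and the share below was 17.9%, against 25.1%. Plasma membrane proton pumps, which supply the gradient that these carriers use, were high. Of 4 listed pump genes 3 lay above. pma1 (GeneID 100216710) stood at 308, 229, 271 and 287 CPM in replicates 1 to 4 and mha4 at 270, 242, 254 and 224 CPM. mha2 had 66.9 ± 7.5 CPM, and mha1 had 3 counts. Close copies may share reads, so single levels in this family are uncertain.

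In the nitrogen assimilation list 6 of 12 genes lay above, 2 below and 1 neither, and 3 were not expressed. gln1-3 (GeneID 542214), a glutamine synthetase gene, stood at 243, 195, 217 and 318 CPM in replicates 1 to 4, with replicate 4 the highest. Its log2 ratio was 4.05 ± 0.24 (edgeR, adjusted p = 2.24e-15). The asparagine synthetase gene asn1 and the glutamate dehydrogenase gene gdh1 followed at 160 ± 14.2 and 137 ± 17.2 CPM. Both asn1 and gdh1 had fractional values, which were rounded, so their levels are uncertain and they were absent from the fit with whole values only. The glutamine synthetase genes Gln1-4 and gln2 had 89.0 ± 18.7 and 85.9 ± 13.4 CPM, and the glutamate synthase gene fgs1 had 37.6 ± 6.60 CPM. fgs1 no longer passed per kb of gene span, where its log2 ratio was -0.66. gln1, whose synonym gs2 names the plastid form of glutamine synthetase, lay below at 1.31 ± 0.235 CPM, as did asn3 at 4.50 ± 2.22 CPM. asn3 missed the threshold without replicate 1 (edgeR, adjusted p = 0.0528) and per kb of gene span (0.188). Reads may be shared among the glutamine synthetase genes too, and their single levels are uncertain.

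No sulfate carrier was among the members, but 9 aprl genes, named for their likeness to the adenylylsulfate reductase of sulfate assimilation, were all expressed. The filter was passed by 57.6% of all protein-coding genes. Of the 9 aprl genes 2, or 22.2%, lay above and 0 below, against 26.6% and 25.1% of all protein-coding genes tested. Per kb of gene span aprl8 and aprl9 lay above as well, with log2 ratios of 1.59 and 1.47 (edgeR, adjusted p = 5.07e-06 and 0.000277), and aprl5 lay below at -1.48 (7.74e-05). aprl1, whose synonym is apr, stood at 95.5 ± 13.5 CPM and aprl2 at 53.7 ± 8.11 CPM, and the other 7 ran from 6.36 ± 1.02 CPM in aprl3 to 31.4 ± 1.90 CPM in aprl8.

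Other genes of potassium transport were lower than the leading HAK genes on the CPM scale. Of 7 listed, 0 lay above, 2 below and 2 did neither, and 3 had no count. The Shaker-type channel gene kch5, also named ZMK1, stood at 3.18 ± 0.299 CPM and lay below, and the channel genes kch3 and kch4 had no count, nor had HKT1, which encodes a carrier of sodium. The antiporter gene NHX5 was the lowest of those that passed, at 1.46 ± 0.327 CPM. NHX3 and KEA2 had 27.9 ± 6.29 and 18.5 ± 1.70 CPM and did not pass.

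**Figure D5:**
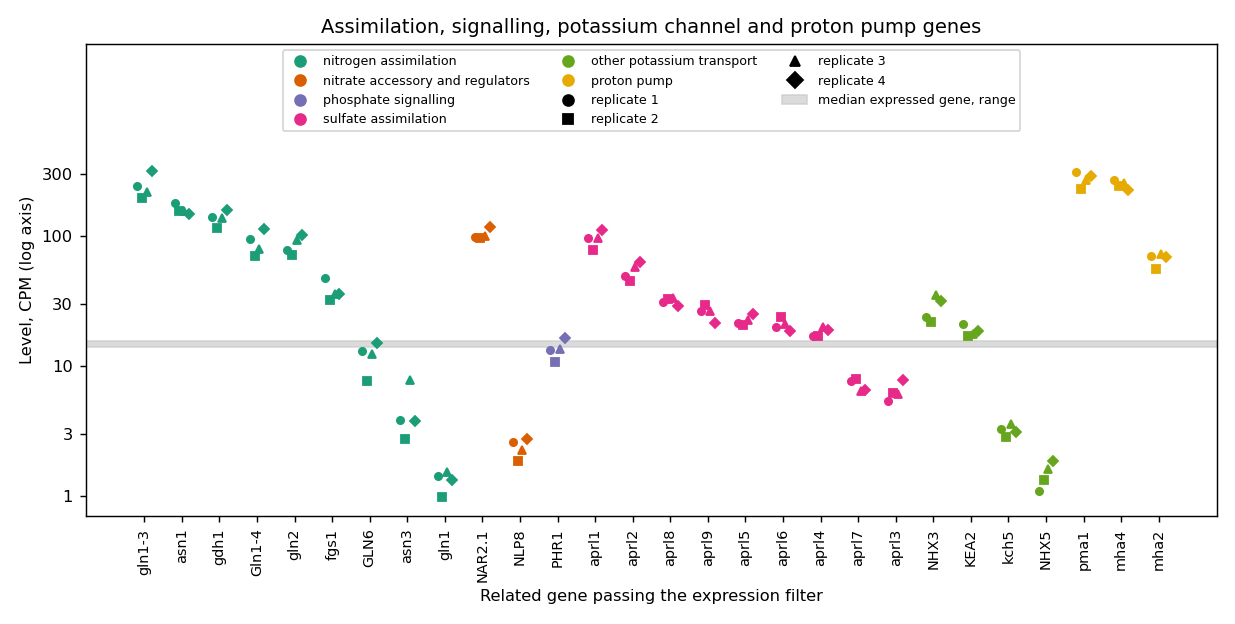
Level of the 28 expressed related genes in each of the 4 libraries in CPM on a log axis, coloured by list, with a grey band for the range of the median expressed protein-coding gene. The proton pump genes pma1 and mha4 and the glutamine synthetase gene gln1-3 lie highest, NAR2.1 lies between 96.2 and 117 CPM, and gln1, NHX5 and NLP8 lie lowest.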

How the data were processed

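The authors deposited estimated counts per gene for each library, listed by NCBI GeneID and not normalized. The submitters' processing notes list HTSeq, deepTools, UMI-tools, SAMtools, STAR 2.7.10b and Trimmomatic 0.36 and 0.39. The settings, the genome build, the strand option of the counting and any collapsing of reads by molecular tag were not given in the sources used here. Where tags were not collapsed, several reads can stem from 1 molecule, and intervals cover counting error only. None of the 38 member genes had a fractional value (0 of 38, tolerance 1e-06 of a count), while 3062 of 48174 genes did, and these were rounded. A further table with 5 value columns that match none of the 4 samples was not used. Names came from the RefSeq table of Zm-B73-REFERENCE-NAM-5.0, which held 48127 of the GeneIDs.

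Expression was called with filterByExpr of edgeR 4.0.16 (minimum count 10, minimum total 15). A quasi-likelihood model with an intercept alone was fitted, and the offset of a library was the median count of its expressed protein-coding genes. The F statistic compared the deviance of the fit with that at the 2-fold bound closer to it, and p-values were adjusted over all 21046 genes at 0.05. On simulated counts, 40 of 40 genes at 4-fold, 40 of 40 at 3-fold, 40 of 40 at 0.25-fold and 0 of 40 at 1.5-fold were called among 20773 genes. Ratios at or under 2-fold cannot be called by construction. A fit per coding length had been planned as the main one, but no coding lengths were at hand, so the fit without length was used.

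Alternatives were TMM, DESeq2 1.42.0, limma 3.58.1, other filters, no fold threshold, whole values only, and each library left out; the fits per kb of gene span and with the nrt2 counts summed were added after seeing the data. DESeq2 was run with its own size factors, and the median gene was subtracted before the threshold test. The members and lists were chosen with earlier results of these data known. From the related lists, pho1, a starch phosphorylase gene, and a gene whose synonyms are Asn1 and nac4 were dropped by name, 2 in all, and 1 further gene is not reported here. Per-library values were given for members past the test and for the highest and lowest of each class, and also for pht1, pht7 and HAK1 and the unexpressed genes HAK5 and NNR1 and for further related genes, chosen after their values were seen. The labels call the 4 samples biological replicates and do not say how they were grown apart. A p-value here sets the distance of a gene from the 2-fold bound against the variation among these samples. The variance of each gene was drawn towards that of the other genes tested, and the median gene was taken as fixed.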

Additional observations from a re-analysis of the deposited data

Results flagged for a closer look

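NAR2.1, named for the partner protein of NRT2 nitrate carriers, had 117 CPM in replicate 4 against 96.2 to 99.0 CPM in the other libraries. The gap to the nearest library was 0.868 of the whole range, above Dixon's 95% critical value for 4 samples. This was 1 of 49 sets of values checked, and about 1 in 20 is expected by chance; among all expressed protein-coding genes 5.77% passed the same limit. The flag is on CPM, and the median expressed gene was also highest in replicate 4, at 15.5 CPM against 13.9 to 14.7 CPM in the others. Of all expressed protein-coding genes 38.4% were highest in that replicate. NAR2.1 lay above the median gene without any 1 of the libraries, with a log2 ratio of 2.78 to 2.85.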

How the results depend on the processing

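With TMM, limma or a minimum of 1 CPM, all 19 members kept their calls. They also did with whole values only, which removed no member and could act only through the median gene and the fit. Among the related genes that setting removed asn1 and gdh1, and 10 lay above, against 12 in the main fit. With the nrt2 pair summed the calls were bound to stay, since the sum only added a count to an unexpressed gene. Without a fold threshold 13 members lay above and 4 below, and 19 related genes lay above and 8 below. Without a filter the median gene fell, which raised ratios by 0.87, and 12 members, all under the filter otherwise, and 9 related genes lay below, while HAK24 did not pass; HAK12, HAK1, HAK7, pht7, GLN6 and PHR1 then had log2 ratios of 0.59, 0.18, 0.046, 0.77, 0.59 and 0.74. Per kb of gene span 2 members lay below and HAK8 held 13.6% of HAK counts; HAK18, pht7, GLN6 and fgs1 then stood at -0.22, 0.98, 0.40 and -0.66, and KEA2 and aprl5 at -1.29 and -1.48, both called below (edgeR, adjusted p = 0.00808 and 7.74e-05). Gene span is not transcript length, so these values bound no true level. Leaving out 1 library gave 6 to 8 members above and 0 to 1 below; pht7 then ran from -0.50 to 0.13. By symbol alone 10 members matched and 4 were expressed, and 31 of the 38 had at least 1 count. Of 609 single-gene values under alternatives, 553 kept direction and call, and these include the values with the nrt2 pair summed, which were bound to stay. The cause of the changes was not tested. No paired analysis was possible because the series has 1 group.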
